A study of Rattus norvegicus with 4 samples.

Results

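The names considered here are the 66 rows that the authors' table of PC12 vesicle RNA types as piRNA, out of 594 names in all. The other 528 are microRNA names, 1 of them with an empty type field. The members were taken by the type field alone, without a rule on their ratios, and all begin with rno_piR followed by a number. Every listed name has at least 10 counts in 1 of the libraries, so counts bore on which names could be members. PC12 was derived from a rat pheochromocytoma (an adrenal medullary tumour), and the labels call it a catecholamine cell. It gave 1 library of extracellular vesicles (EVs) titled EVu and 1 titled EVd. The labels give no genotype, treatment, time or meaning for the letters u and d, and no method of vesicle isolation for PC12, so EVu and EVd are used as names. The other libraries of the series, from the breast cancer line RMT1, have no piRNA values here.

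PIWI-interacting RNAs (piRNAs) are small RNAs, somewhat longer than microRNAs, that are loaded into PIWI proteins rather than the AGO proteins that carry microRNAs. In the animal germ line they guide the silencing of transposons, and in mammals they are best known from the testis. They are made from long single-stranded transcripts without a hairpin precursor, and most start with a uridine and carry a methyl group at the 3′ end. Reference collections of rat piRNAs rest largely on small RNAs cloned from testis. In tissues outside the germ line some entries of such collections have the sequence of fragments of abundant RNAs such as tRNAs, so a match to a name is weaker evidence than the sequence, the length and the 3′ end.

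The evidence for the label in these data was the name and the type field. The table gave a locus and a precursor for 0 of the 66 piRNA names, against a locus for 519 of the 528 microRNA names. The files used here hold no sequence or read length for any piRNA name, so none is printed, and a starting uridine, a length or a match to another RNA could not be looked for. The table of all 4 libraries lists 762 names, 0 of them piRNA names, so no piRNA count could be checked against the second table. Whether the counted molecules were piRNAs was not tested.

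What the table does hold with a sequence are microRNAs of the germ line. They are shown as a germ-line readout with a known sequence. Of a list of 22 chosen arms of microRNAs known from testis, oocyte or early embryo, the table lists 7, and all 7 had a mature sequence in RefSeq (GRCr8). Capitals mark the seed, bases 2 to 8, by which a microRNA recognises its targets.
rno-miR-34c-5p: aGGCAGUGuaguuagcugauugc
rno-miR-449a-5p: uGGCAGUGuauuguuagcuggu
rno-miR-202-3p: aGAGGUAUagcgcaugggaaa
rno-miR-463-3p: uGAUAGACgccaauuuggguag
rno-miR-465-5p: uAUUUAGAacggugcuggugug
rno-miR-880-3p: uACUCCAUucauucugaguaga
rno-miR-881-3p: uAACUGUGgcauuucugaauag
The first pair share the seed GGCAGUG and are abundant in testis but also in ciliated epithelium. miR-202 is a microRNA of the gonads, and the last 4 belong to an X-linked group expressed in testis.

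These germ-line microRNAs were rare in PC12 vesicles. Together the 7 had 121 counts in EVu and 121 in EVd, that is 236 and 313 CPM (counts scaled to a common library total). With the other listed arms and relatives of the same groups, such as miR-34b-3p with 24 and 25 counts and miR-293-5p with 25 and 13, there were 13 names with 214 and 202 counts, or 418 and 522 CPM. These 6 further names were added after their values were seen. The highest single count was 30, for miR-880-3p in EVu, with 23 in EVd. miR-34c-5p had 13 counts in EVu and 21 in EVd. In the table of all 4 libraries, which lists 20 of the 22, 12 were at 0 in both PC12 libraries, among them miR-202-3p, miR-465-5p, miR-880-3p and miR-881-3p. Of all shared microRNA names with a mean of 10 to 30 counts, 46.1% were at 0 there in EVu and 51.7% in EVd. No rarity of germ-line names is therefore read from these zeros. By contrast the neuroendocrine and neural list, with 7 of 9 microRNAs listed, reached 48926 CPM in EVu and 37500 in EVd. The members of that list not listed there were miR-124-3p and miR-212-3p. The summed piRNA names stood at 32998 CPM in EVu and 27864 in EVd, on the same scale.

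The piRNA names held a small share of the counts, led by a handful of names. The table sums to 512244 counts in EVu and 386957 in EVd, where 3 counts, the most that a count of 0 allows, stand for 0.000586% and 0.000775%. Of these, 16903 counts in EVu and 10782 in EVd fell on piRNA names. Their share was 3.30% in EVu (95% exact Clopper-Pearson interval 3.25% to 3.35%) and 2.79% in EVd (2.73% to 2.84%), for 11.1% of the names. Intervals and floors cover counting error only, and there is 1 library per group, so no difference below has a replicate check or a test. Every name of the table has at least 10 counts in 1 of the libraries, and the shares leave out any piRNA below that. A single piRNA name had a median of 44.5 counts in EVu (range 2 to 4321) and 42 in EVd (range 1 to 2300). The microRNA names had medians of 39.5 and 30.5, so an ordinary listed piRNA name was counted about as often as an ordinary listed microRNA name. These medians also leave out names with under 10 counts in both libraries. The top microRNA reached 67260 and 32634.

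**Figure D1:**
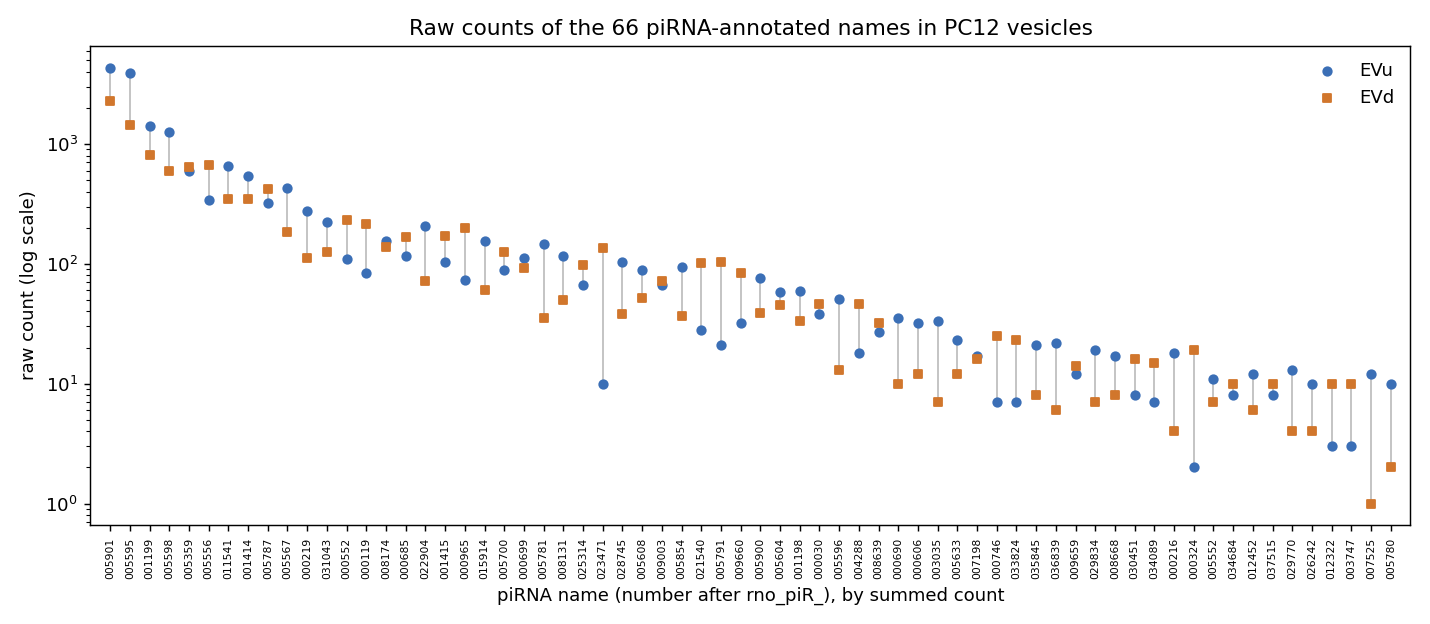
Raw counts (log scale) of each of the 66 piRNA names in EVu (circles) and EVd (squares), ordered by the sum of both; a grey line joins the values of 1 name. The leading pair lie above 1000 counts in both libraries, and 38 names stay under 100 in both.

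A pair of names together carried 48.6% of the piRNA counts of EVu and 34.7% of those of EVd. rno_piR_005901 had 4321 counts in EVu and 2300 in EVd, which is 25.6% and 21.3% of all piRNA counts. rno_piR_005595 had 3891 and 1441 counts, 23.0% and 13.4%. Both would stand in place 27 among the microRNA names of EVu, and in places 32 and 43 in EVd. rno_piR_001199 followed with 1399 and 801 counts and rno_piR_005598 with 1253 and 598. These 4 names were alone in passing 1000 counts in either library.

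The next 6 names ranged from 319 to 650 counts in EVu and from 185 to 668 in EVd. rno_piR_005359 had 589 counts in EVu and 638 in EVd. rno_piR_005556 had 338 and 668 counts. rno_piR_011541 had 650 and 347 counts. Of these 3, the first pair were higher in EVd relative to the library total and the third was lower. rno_piR_001414 had 545 counts in EVu and 344 in EVd. rno_piR_005787 had 319 and 424 counts. rno_piR_005567 had 430 and 185 counts. The 10 leading names of EVu and those of EVd had 9 in common, so the set of abundant names was much the same, while the order within it differed.

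The counts were more evenly spread in EVd than in EVu. The leading 5 names held 68.1% of the piRNA counts of EVu and 54.2% of those of EVd, and the leading 10 held 81.3% and 72.3%. It took 3 names to reach 50% of the piRNA counts in EVu and 5 in EVd, and 19 and 24 names to reach 90%. Among microRNA names the leading 10 held 48.2% and 48.4%, and 11 names reached 50% in both libraries. These counts depend on the size of the class: as a share of names, 4.55% and 7.58% of the piRNA names reached 50%, against 2.08% of the microRNA names in each library. By that measure the microRNA counts were the more concentrated.

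**Figure D2:**
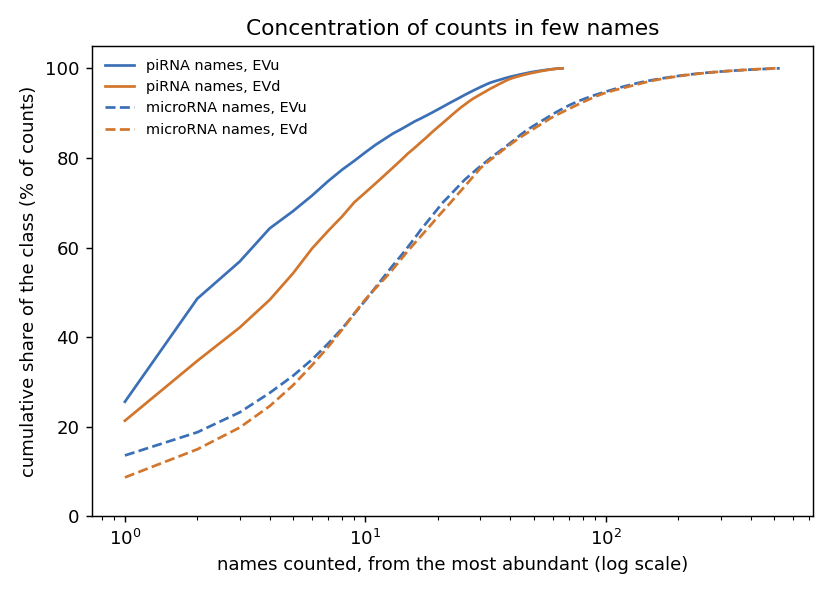
Cumulative share of the counts of a class (%) against the number of names, from the most abundant (log scale), for piRNA names (solid) and microRNA names (dashed) in EVu and EVd. The piRNA curve of EVu lies above that of EVd, with 81.3% and 72.3% at 10 names, while the microRNA curves nearly coincide from about there.

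The abundant names also lay close together in the numbering of the collection. Numbers ran from 30 to 37515, and 25 of the 38 blocks of 1000 numbers held at least 1 name. The block that starts at 5000 held 18 of the 66 names, all of them numbered between 5359 and 5901, and 69.9% of the piRNA counts of EVu and 62.4% of those of EVd. It contains 7 of the 10 most abundant names. The block that starts at 1000, with 4 names, held 12.5% in each library. The names fall into a first series of GenBank records, up to number 11541, and a second from number 12322. The 47 names of the first series held 94.5% of the piRNA counts of EVu and 93.0% of those of EVd, and the largest count among the 19 of the second was 223. This grouping was noticed in the data. The files do not say whether neighbouring numbers stand for similar or overlapping sequences, between which counts could be split, so the split among neighbours is uncertain.

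**Figure D3:**
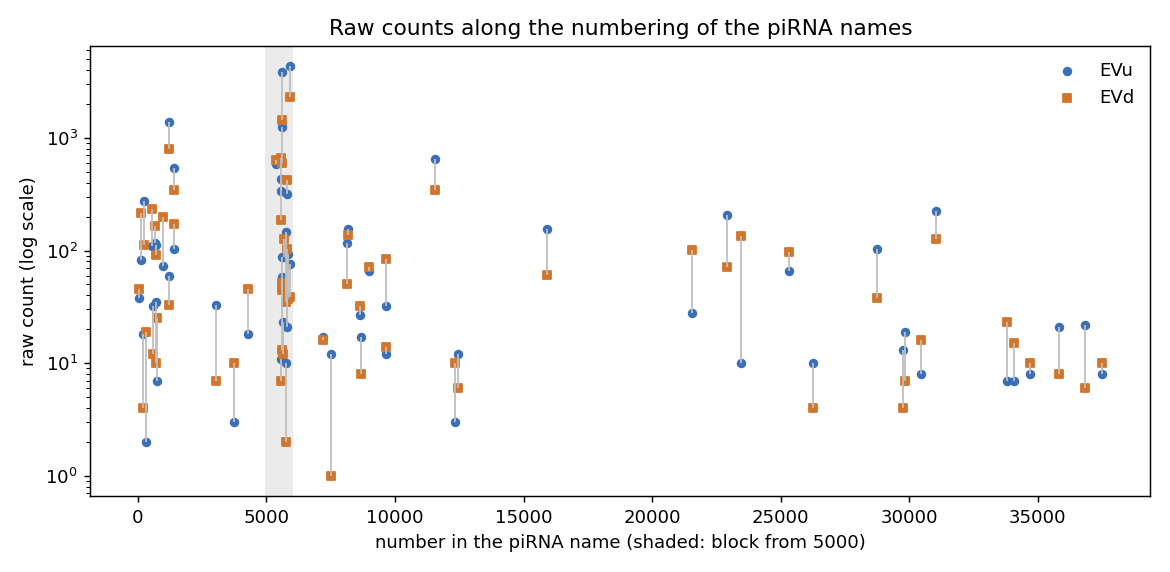
Raw counts (log scale) in EVu (circles) and EVd (squares) of the 66 piRNA names against the number in the name, with the block of 1000 numbers from 5000 shaded. That block holds 18 names and the highest counts, and the names from 12322 on stay at or below 223.

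In 6 places the table holds a pair of names with consecutive numbers, and their counts were unequal. rno_piR_005900 had 76 counts in EVu and 39 in EVd beside the 4321 and 2300 of rno_piR_005901, a 57.6-fold gap in summed counts. The log2 ratios of CPM of EVd over EVu were nevertheless close, at -0.55 (95% counting interval -1.15 to 0.02) and -0.51 (-0.58 to -0.43). In the same way rno_piR_001198 and rno_piR_001199 stood at -0.43 (-1.09 to 0.20) and -0.40 (-0.53 to -0.27). The intervals overlapped in 5 of the 6 pairs, but low counts give wide intervals that overlap easily. rno_piR_005780, with 10 and 2 counts, had an interval of -5.15 to 0.31. rno_piR_009659 at 0.61 (-0.59 to 1.87) overlapped rno_piR_009660 at 1.78 (1.19 to 2.43). The share of overlaps among other pairs of names was not computed, so no likeness of neighbours is read from this count. In the exception, rno_piR_001414 was at -0.26 (-0.46 to -0.06) and rno_piR_001415, with 103 and 172 counts, at 1.14 (0.78 to 1.51).

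EVd was then set against EVu. The piRNA names as a sum were slightly lower in EVd, at a log2 ratio of -0.24 (counting interval -0.28 to -0.21), and this direction came from the most abundant names. Without rno_piR_005901 the ratio of the sum was -0.16, and without it and rno_piR_005595 it was 0.10 (0.06 to 0.15). Without the 18 names of the block from 5000 it was 0.076 (0.02 to 0.14). The 56 names below the leading 10 had 3168 counts in EVu and 3036 in EVd, and as a sum they were higher in EVd at 0.34 (0.27 to 0.42). The class therefore had no common direction.

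Ratios of single names are given as the log2 ratio of CPM with a pseudocount of 1 CPM, beside an exact binomial interval that is computed without the pseudocount. Among the 10 most abundant names, 7 were below 0 and 3 above, with all 10 intervals on 1 side of 0. Intervals are narrow at such counts. They lay on 1 side of 0 for 33 of 45 microRNA names with a mean of 300 to 1000 counts, and for 49 of 58 from 1000 on. rno_piR_005595 was lowest at -1.03 (-1.12 to -0.94), an interval that includes a fold of 2. rno_piR_005567 was at -0.81 (-1.07 to -0.56), rno_piR_005598 at -0.66 (-0.81 to -0.52), and rno_piR_011541 at -0.50 (-0.69 to -0.31). On the other side rno_piR_005556 was at 1.39 (1.20 to 1.58), rno_piR_005787 at 0.81 (0.60 to 1.03) and rno_piR_005359 at 0.52 (0.36 to 0.68). rno_piR_005556 was therefore the one abundant name whose whole interval lay beyond a fold of 2.

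Some names with fewer counts went further, in both directions. rno_piR_023471 had 10 counts in EVu and 136 in EVd, a log2 ratio of 4.10 (3.25 to 5.26), or 17.2-fold higher in EVd. rno_piR_000324 had 2 and 19 counts, at 3.35 (1.60 to 6.80), where the low count leaves the size loosely known. rno_piR_005791 had 21 and 104 counts, at 2.68 (2.03 to 3.46). rno_piR_023471 and rno_piR_005791 stood in places 55 and 43 of the piRNA order in EVu and in places 17 and 21 in EVd. A rise in place follows from a high ratio and is no separate result. rno_piR_021540 had 28 and 102 counts, at 2.25 (1.65 to 2.93). rno_piR_000746 had 7 and 25 counts, at 2.16 (0.99 to 3.69). rno_piR_000324 and rno_piR_000746, with under 10 counts in EVu, passed the filter only through EVd, so nothing is read from their ratios.

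At the lower end the ratios were smaller in size. rno_piR_003035 had 33 counts in EVu and 7 in EVd, at -1.78 (-3.25 to -0.63). rno_piR_000216 had 18 and 4 counts, at -1.67 (-3.79 to -0.16). rno_piR_005781 had 147 and 35 counts, at -1.65 (-2.24 to -1.13). Of these 3, the last has the narrowest interval and was the only piRNA name with a mean of at least 10 counts whose interval lay wholly below a fold of 2. rno_piR_005596 had 51 and 13 counts, at -1.54 (-2.57 to -0.67). rno_piR_036839 had 22 and 6 counts, at -1.41 (-3.06 to -0.12). rno_piR_003035, rno_piR_000216 and rno_piR_036839, with under 10 counts in EVd, passed the filter only through EVu, so nothing is read from their ratios.

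**Figure D4:**
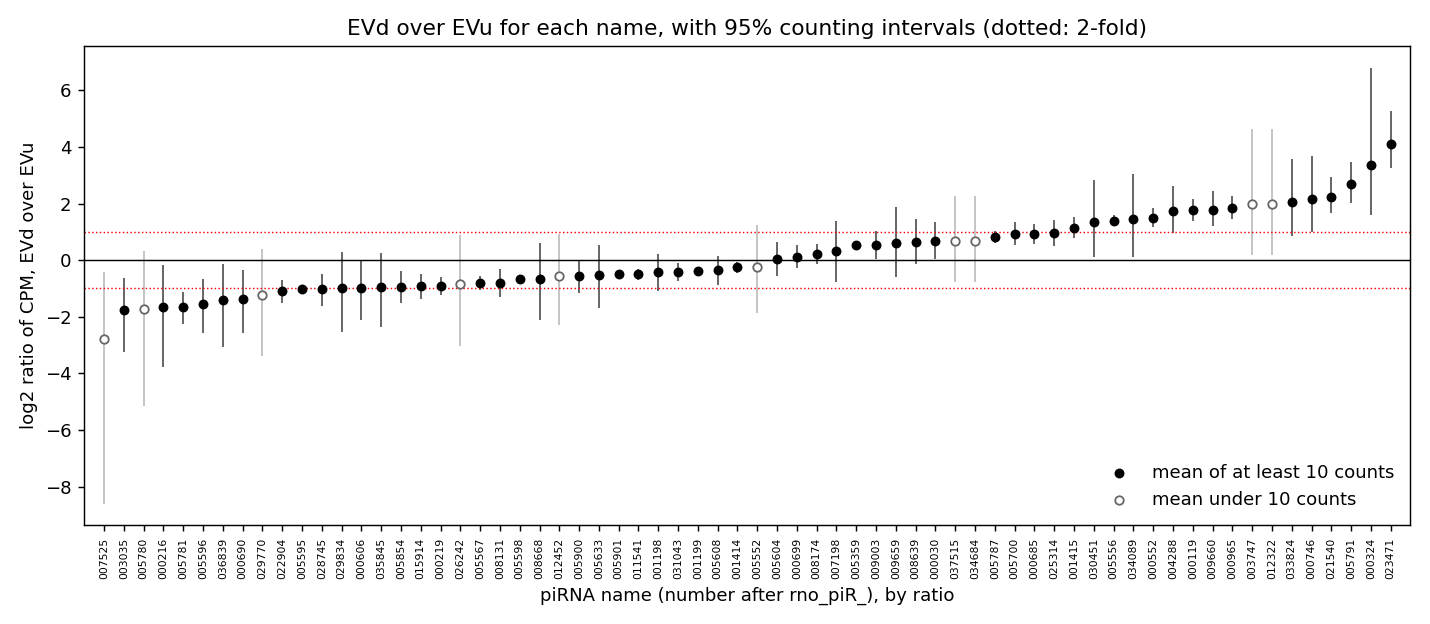
Log2 ratio of CPM of EVd over EVu for each of the 66 piRNA names, ordered by ratio, with 95% counting intervals (lines); filled points have a mean of at least 10 counts, open points fewer, and dotted lines mark a fold of 2. The values run from -2.77 to 4.10, and the highest, rno_piR_023471, has an interval of 3.25 to 5.26.

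Of the 66 names, 56 had a mean of at least 10 counts. Of those, 15 were at least 2-fold higher in EVd, where 15.2% of all 528 such names were, and 9 were at least 2-fold lower, where 7.95% of all were. Taking both directions, 24 of 56 piRNA names (42.9%) lay beyond a fold of 2, against 98 of 472 microRNA names (20.8%) and 23.1% of all names. Of these 24, 8 had under 10 counts in 1 library and passed only through the library where they were high. The same held for 21 of the 98 microRNA names at a mean of 10 to 30 counts and 3 at 30 to 100. The counting interval lay wholly above 0 for 22 of the 56, against 26.5% of all names, and wholly below 0 for 21, against 21.6% of all. It lay wholly above a fold of 2 for 9 names, against 6.06% of all, and wholly below for 1, against 2.84%. The median log2 ratio was -0.11 over the 56 names and 0.05 over all 528, while the median size of the ratio regardless of sign was 0.94 for piRNA names and 0.52 for microRNA names. Over all 66 names the median was -0.25, against -0.0054 over all 594, so the place of the centre depended on the filter. With at least 10 counts required in each library, a filter chosen after seeing the data, the median was 0.038 over 45 piRNA names, of which 10 were at least 2-fold higher and 6 lower (35.6%), against 74 of 420 microRNA names (17.6%). The names nearest the fold of 2 were rno_piR_005595 and rno_piR_028745, both at -1.03, just beyond it, and rno_piR_029834, with 19 and 7 counts, and rno_piR_000606 at -0.99, just within it.

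Low counts widen ratios, so the spread was also read within classes of abundance. Among names with a mean of 10 to 30 counts, 9 of 17 piRNA names lay beyond a fold of 2, but 8 of these 9 had under 10 counts in 1 library and passed through the library where they were high, so nothing is read from that class. With at least 10 counts in each library 1 of 6 piRNA names and 14 of 133 microRNA names of that class lay beyond a fold of 2. Between 30 and 100 counts, where no such piRNA name had under 10 counts in a library, it was 8 of 17 (47.1%) against 26 of 114 (22.8%), and between 100 and 300 counts 5 of 12 (41.7%) against 19 of 73 (26.0%). From 300 to 1000 counts it was 1 of 7 against 11 of 45, and from 1000 on 1 of 3 against 7 of 58. The share was higher for piRNA names in the classes from 30 to 300 counts, and the 10 names above hold too few for a comparison.

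**Figure D5:**
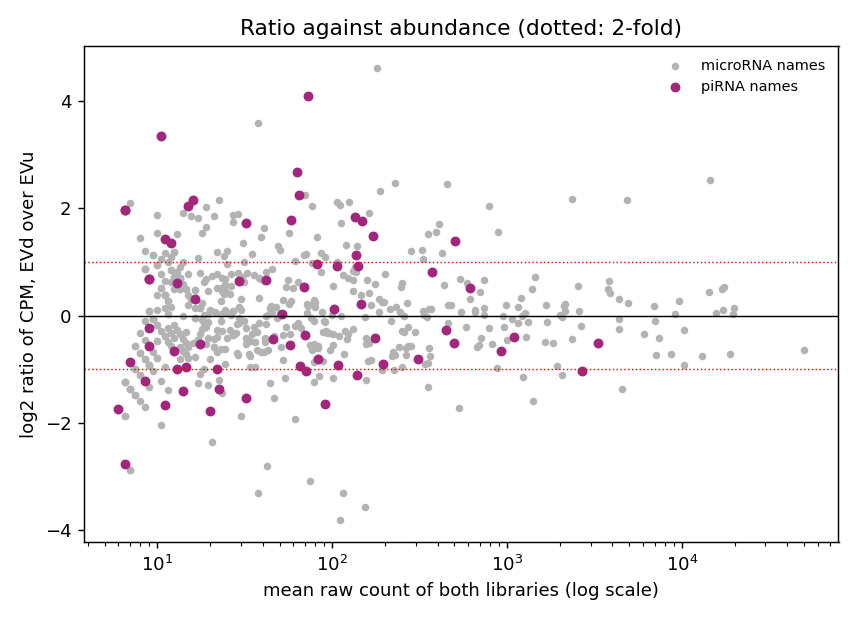
Log2 ratio of CPM of EVd over EVu against the mean raw count of both libraries (log scale) for piRNA names (purple) and microRNA names (grey); dotted lines mark a fold of 2. The piRNA points lie on both sides of 0, with a median size of the ratio of 0.94 against 0.52 for microRNA names at a mean of at least 10 counts, and some, such as rno_piR_005604 at 0.04, lie close to 0.

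Other values differed between the same libraries. All 8 microRNAs of the blood and liver list were counted, with none at 0, and their sum was 2042 CPM in EVu and 320 in EVd, a log2 ratio of -2.67 (-2.95 to -2.40). The red cell microRNA miR-451-5p had 70 counts in EVu and 5 in EVd, and miR-142-3p of white blood cells 289 and 18. The germ-line list, with 7 of 22 names listed, went from 236 to 313 CPM, at 0.40 (0.03 to 0.78), and the sum of the neuroendocrine and neural list was at -0.38 (-0.41 to -0.35). Of its 7 listed members 4 were below 0, among them miR-218a-5p at -0.72 and miR-375-3p at -1.11, and 3 above, miR-7a-5p at 0.18, miR-129-5p at 0.21 and miR-132-3p at 0.69. The part of any of these in the piRNA ratios was not tested.

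How often a count of this size recurs in the second table of the same libraries could be read from the microRNA names alone. Of 178 shared microRNA names with a mean of 10 to 30 counts, 82 (46.1%) were at 0 in EVu and 92 (51.7%) in EVd of the table of all 4 libraries. From 30 to 100 counts it was 30.1% and 32.7% of 113, and from 100 to 300 counts 22.2% and 23.6% of 72. From 300 to 1000 counts it was 8.89% and 11.1% of 45, and from 1000 counts on 8.77% of 57 in both. Names at 0 there were found in every class, and why was not tested. Of the 56 piRNA names, 34 had a mean between 10 and 100 counts, where microRNA names were most often at 0. No piRNA name is listed there, so how often their counts would recur is not known.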

How the data were processed

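Small RNA libraries were made from vesicle RNA with the QIAseq miRNA kit, per the labels' protocols. Per the file headers the authors deposited raw counts for PC12, with log2 normalized values beside them. In the table of all 4 libraries the authors deposited log2 values only. Here the normalized PC12 values were found to equal the log2 of each count times 0.886 in EVu and 1.15 in EVd. mm10, a mouse genome build, stands in the submitters' processing notes, although the samples are rat. Not given in the sources used here are the aligner, the counting program, the source of the piRNA names and whether counts are reads or molecules.

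Counts were scaled by library totals (512244 and 386957). Shares have exact Clopper-Pearson 95% intervals and ratios exact conditional binomial 95% intervals (scipy 1.17.1). Only the ratio intervals were tested on simulated data. No test was made, since each group has 1 library. A name was called at a fold of 2 if the mean of its counts was at least 10. Named were the 10 most abundant piRNA names and the 5 highest and 5 lowest ratios. Others were named after their values were seen: those nearest the fold of 2 and those with consecutive numbers. Alternatives were other scalings (TMM factors from edgeR 4.0.16), filters, pseudocounts and folds. The members and lists were chosen with earlier results of these data known.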

Additional observations from a re-analysis of the deposited data

How the results depend on the processing

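No paired analysis was possible because each PC12 group has 1 library, and for the same reason no replicate could be left out. Scaling by the authors' factors, TMM factors or microRNA totals kept the summed ratio between -0.27 and -0.25. It kept the calls at 15 higher and 10 to 11 lower of 56 (44.6% to 46.4%), against 23.1% of all 528 names. Pseudocounts of 0.5 and 10 CPM gave 15 higher and 10 or 8 lower (44.6% and 41.1%), against 23.7% and 19.1% of all names. With no filter, or a mean of at least 5 counts, which keeps the same 66 names, 17 were higher and 12 lower. These were 43.9% of the piRNA names, against 25.8% of all 594, and the median piRNA log2 ratio was -0.25. With a mean of at least 50 counts 35 names remained, 9 higher and 4 lower, and the median was 0.038 in place of -0.11. The share called was 37.1%, against 24.1% of all 270 such names. At least 10 counts in each library, chosen after seeing the data, left 45 names with a median of 0.038. Of these 10 were higher and 6 lower (35.6%), against 19.4% of all 465 such names. A fold of 1.5 called 22 higher and 19 lower of 56 piRNA names (73.2%), against 47.3% of all 528 names. A fold of 4 called 6 higher and 0 lower (10.7%), against 5.68% of all 528. Among these 6, rno_piR_000324, rno_piR_000746 and rno_piR_033824 had under 10 counts in EVu. They passed the filter only through EVd, so nothing is read from this split or its share.

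Without rno_piR_005901 the piRNA share was 2.46% in EVu and 2.19% in EVd and the summed ratio -0.16. Without it and rno_piR_005595 the shares were 1.70% and 1.82% and the ratio 0.10, and without the 18 names of the block from 5000 the ratio was 0.076. These last 2 were chosen after seeing the data. Without the leading name the leading 1, 5 and 10 held 30.9%, 61.9% and 77.0% of the remaining piRNA counts in EVu, and 17.0%, 48.9% and 67.3% in EVd. For the 20 names chosen by rule, 0 of 100 values under other scalings and pseudocounts changed sign or crossed the fold of 2. The largest shift was 1.27, for rno_piR_000324, from 3.35 to 2.09 with a pseudocount of 10 CPM. Depth limits the rare names most: with 10 to 30 counts the median piRNA interval was 2.70 wide on the log2 scale, against 0.176 from 1000 counts on.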

Other observations

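In the authors' deposited table of names called higher in EVd, 17 of 87 names (19.5%) were piRNA names. In their table of names called lower it was 15 of 73 (20.5%). Among all 594 names 11.1% were piRNA names. The authors' tables apply no minimum mean. Both include names with under 10 counts in 1 library, such as rno_piR_000324, with 2 and 19 counts, and rno_piR_003035, with 33 and 7. Such names were listed only through the library where they were high, so nothing is read from the 19.5% and 20.5%. Of the 10 piRNA names with a mean under 10 counts, means ran from 6 to 9. In EVd 2 of them were at least 2-fold higher, 3 were at least 2-fold lower and 5 lay within. Each was listed through the 1 library where it reached 10 counts, so nothing is read from this split. With no filter 43.9% of the 66 piRNA names and 25.8% of all 594 names lay beyond a fold of 2. The lowest ratio of all 66 belonged to rno_piR_007525, whose 12 counts in EVu stood against 1 in EVd, at -2.77 (-8.60 to -0.42); it was named after its value was seen.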
